A study of Rattus norvegicus with 24 samples.

Results

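The 33 genes described here encode the folding machinery of the endoplasmic reticulum (ER) and parts of the stress pathway that controls it. They comprised 14 chaperones and chaperone partners, 9 enzymes of disulfide bond formation, 7 components of ER-associated degradation (ERAD) and 3 regulators. Members were found by gene symbol. Every probe set with a single symbol in the array's annotation was taken if that symbol, updated to RefSeq, was one of the 33, with Ero1l listed as Ero1a. In all, 32 of the 33 genes had a probe set, 45 of the 31099 probe sets on the array, and the array carries 14218 genes with a single symbol. The expression of Derl3 was not analysed here. Where a gene had several probe sets, the one with the highest mean represented it, and all 32 passed the filter on low signals, so that the counts below cover every measured member.

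The ER folds secreted and membrane proteins, and chaperones such as the Hsp70 protein BiP bind the chain while disulfide isomerases join its cysteines. When unfolded protein accumulates, sensors in the ER membrane start the unfolded protein response: Atf6 and the spliced form of Xbp1 raise folding and degradation genes, while phosphorylation of the initiation factor eIF2 slows protein synthesis and allows Atf4 to be made. Magnocellular neurons of the supraoptic nucleus send large amounts of the disulfide-bonded vasopressin and oxytocin precursors through this compartment, and dehydration raises the demand for vasopressin.

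RNA from the supraoptic nucleus of Sprague Dawley rats was hybridised to single-colour arrays, each array holding a pool of 5 animals. Females were either euhydrated controls (4 arrays) or deprived of water for 72 hours with food freely available (4 arrays used). Males of 10 to 12 weeks were either controls (5 arrays) or dehydrated for 3 days (5 arrays), and the labels name no genetic change in any group. The question was how osmotic challenge changes gene expression in this nucleus, and it was asked within each set because RNA extraction, labelling and signal software differed between the sets. Sex, laboratory protocol and software cannot be told apart in any comparison of females with males. The pools may be technical as well as biological replicates, so p-values measure only the spread between them. Of 24 samples, 19 had values, and the 5 samples of lactating females were not analysed here.

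The median signal per array was 36.1 to 46.5 over the 18 arrays used, and no pair of arrays held identical values. A further dehydrated female array, called the additional array below, was left out: its vasopressin (Avp) signal was 50.6 and its oxytocin (Oxt) signal 26.0, against at least 3644 and 3001 on every other array, so that it went against its tissue label. Female results are given without it, and also with it for the members and pathway genes that passed the test and for some others. Other cell types moved with dehydration. Of 15 meningeal and fibroblast markers, 7 fell in females and 14 in males. Their summed signal was 4463 to 6031 in control and 2891 to 3323 in dehydrated females, and 5829 to 12912 in control and 2937 to 7424 in dehydrated males. In females 4 of 9 oligodendrocyte markers were also lower, their summed signal being 6698 to 9472 in controls and 3805 to 6579 after dehydration, while 0 of 9 passed in males (0 also at an unadjusted p under 0.05 by limma). In males 4 of 8 tested microglial and 3 of 10 astrocyte markers were lower. In females 0 of 9 tested microglial (2 at an unadjusted p under 0.05 by limma) and 1 of 10 astrocyte markers were. The summed microglial signal was 909.2 to 1181 in control and 715.9 to 909.4 in dehydrated females. In males it was 929.2 to 1398 in controls and 799.5 to 1045 after dehydration. Of 7 tested magnocellular markers, 2 (Pdyn and Calb2) rose in each set and 1 (Cartpt) fell in males. The summed signal of the 8 on the array was 10660 to 12232 in control and 11811 to 20417 in dehydrated females. In males it was 12188 to 14622 in controls and 13652 to 16423 after dehydration. Of 5 tested choroid and ependymal markers, 1 rose and 2 fell in males. The ratio of the 3' to the 5' probe set of Gapdh, a measure of RNA integrity, was 1.02 to 4.12 in control and 1.07 to 1.68 in dehydrated females, and 2.49 to 3.50 in control and 2.72 to 3.89 in dehydrated males. For beta-actin it was 2.44 to 13.3 in control and 2.56 to 5.30 in dehydrated females, and 5.23 to 7.12 in control and 6.83 to 9.00 in dehydrated males. The part of these shifts in the results below was not tested. In tissue RNA, fewer cells of a type and less RNA per cell cannot be told apart.

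After dehydration a subset of the genes rose by 1.16 to 1.54 times in males, with Hspa5, Calr and the isomerases Pdia4 and Pdia6 among them, while Creld2, Txndc5 and Ero1b fell. In males 10 of the 32 genes were higher and 3 were lower at an adjusted p under 0.05 (limma, Benjamini-Hochberg over 21729 probe sets). Over all probe sets, 8.32% were higher and 9.38% lower in the same fit, and with 1 probe set per gene 11.1% and 9.98% were. Lower members were thus about as frequent as lower probe sets over the whole array. The median difference of the 32 genes was 0.12 on the log2 scale, against -0.02 over all genes tested. In females 2 of the 32 were higher, where 1.77% of all probe sets were, and 0 were lower, where 1.19% were; with 1 probe set per gene the shares were 2.27% and 1.56%. At an unadjusted p under 0.05, 7 members were higher in females and 0 lower, against 8.30% and 10.6% of all probe sets. The female median was 0.09, against -0.03 over all genes tested, and the typical standard error was larger in females, with a median over all probe sets of 0.17 against 0.12 in males. With the additional dehydrated array in the fit, 0 members passed in females and 1 of 21729 probe sets did (0.00460% higher by limma), so that count says nothing of the members. At an unadjusted p under 0.05, 4 members were higher, against 3.99% of probe sets.

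Scaling bears on this split. With each array centred on its median, 12 members were higher and 0 lower in males, and over all probe sets the counts moved from 1808 higher and 2038 lower to 2710 and 1091. In females the same change moved the counts over all probe sets from 384 higher and 259 lower to 348 and 114.

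**Figure D1:**
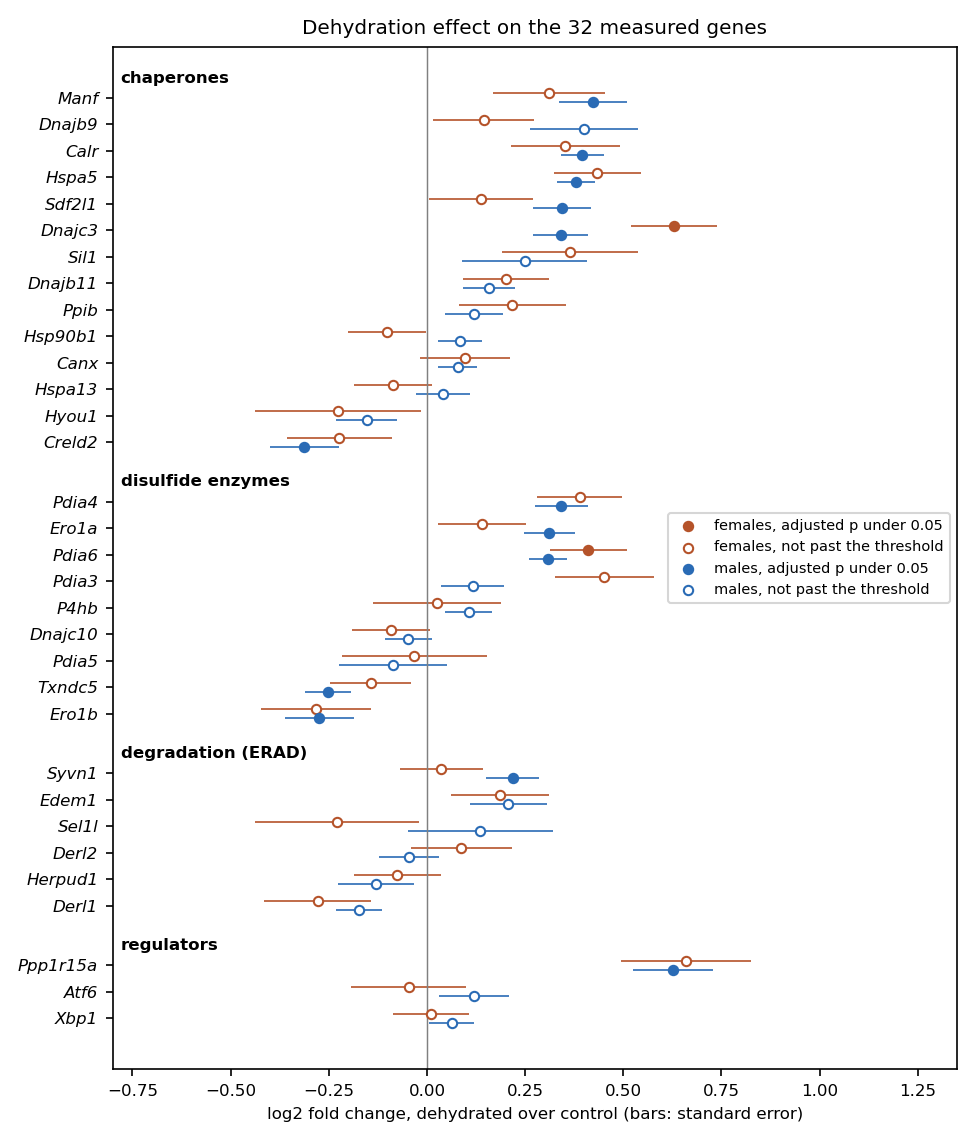
Log2 fold change of dehydrated over control arrays for the 32 measured genes by branch, females in orange and males in blue, with bars of 1 standard error. Filled points had an adjusted p under 0.05 and open points did not. Chaperones and disulfide enzymes, which are also most of the genes shown, hold most of the filled points. Creld2, Txndc5 and Ero1b lie filled on the negative side in males, and Ppp1r15a has the highest value in both sets.

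Among the 14 chaperones and partners, 5 were higher and 1 was lower in males, and 1 was higher in females. Over all genes, with 1 probe set each, 11.1% were higher and 9.98% lower in males, and 2.27% were higher in females. Their median difference was 0.20 in males and 0.17 in females. The 5 that rose in males were Hspa5, Calr, Dnajc3, Sdf2l1 and Manf.

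Hspa5 encodes BiP, the main Hsp70 chaperone of the ER lumen (probe set 1370283_at). Its signal was 1487, 1597, 1617, 1526 and 1655 in control males and 2198, 1994, 2110, 2017 and 1950 in dehydrated males. Every dehydrated male pool lay above every control pool. The log2 difference was 0.38 ± 0.05 (SE), a fold of 1.30, with an adjusted p of 9.49e-05. In females the controls gave 1605, 1912, 1837 and 1720 and the dehydrated pools 2220, 2633, 2263 and 2452. These groups did not overlap either, and the log2 difference of 0.43 ± 0.11 was as large as in males, but its adjusted p was 0.0604. On the additional dehydrated female array the signal was 1440, and with it in the fit the female difference was 0.29 ± 0.22 (adjusted p = 0.794).

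Dnajc3, a J-domain partner of BiP, passed the test in both sets (1370073_at). In control females the signal was 122.9, 124.2, 117.0 and 128.2, and after dehydration 191.6, 182.5, 180.6 and 223.2. The log2 difference was 0.63 ± 0.11, a fold of 1.55, with an adjusted p of 0.0116. With the additional array, at 128.8, it was 0.52 ± 0.16 with an adjusted p of 0.421, and without control replicate 3 the adjusted p was 0.0505. Control males gave 159.3, 169.7, 167.1, 174.5 and 163.3, and dehydrated males 207.8, 238.8, 212.0, 195.0 and 212.4. The groups did not overlap in either sex. The male difference was 0.34 ± 0.07, with an adjusted p of 0.0039, and the male effect minus the female effect was -0.29 ± 0.12, with an adjusted p of 0.394.

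Calr encodes calreticulin, the lectin chaperone of newly made glycoproteins (1398750_at). In males it read 643.6, 642.3, 606.8, 568.8 and 577.4 in controls and 860.8, 772.9, 803.6, 773.7 and 793.8 after dehydration. The lowest dehydrated pool was above the highest control, and the log2 difference was 0.40 ± 0.05 with an adjusted p of 0.000225. In females the controls read 403.3, 280.7, 320.9 and 264.8 and the dehydrated pools 444.8, 370.1, 436.1 and 362.4. A control array lay inside the dehydrated range, and the difference of 0.35 ± 0.14 had an adjusted p of 0.198. Its membrane-bound relative calnexin (Canx) had differences of 0.10 ± 0.11 in females and 0.08 ± 0.05 in males, neither past the test.

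Manf, a small ER-retained protein also known as a neurotrophic factor (1372352_at), rose in males by 0.42 ± 0.09, with an adjusted p of 0.00402. Control males read 343.0, 426.4, 402.1, 338.0 and 418.0, and dehydrated males 484.9, 624.0, 478.9, 510.6 and 496.7. The groups were apart, with 1 dehydrated pool well above the other 4. In females the dehydrated pools spread from 523.8 to 887.0 around controls of 507.0 to 565.9, and the difference of 0.31 ± 0.14 did not pass (adjusted p = 0.264). Sdf2l1, which works with the J-domain protein Dnajb11 on BiP (1373043_at), read 232.6, 281.5, 276.5, 234.5 and 289.4 in control males and 327.6, 357.4, 323.9, 323.5 and 337.6 in dehydrated males. These groups did not overlap. The male difference was 0.34 ± 0.07 with an adjusted p of 0.00542, and the female one 0.14 ± 0.13 with an adjusted p of 0.613.

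Creld2, an ER-resident protein with motifs like those of disulfide isomerases that is known as a target of the response, lay on the other side (1377016_at). Control males read 182.5, 165.2, 154.8, 152.4 and 169.2, and dehydrated males 153.3, 134.5, 137.8, 112.1 and 122.1. The groups touched, since 1 dehydrated pool read above the lowest control. Creld2 fell by 0.31 ± 0.09 on the log2 scale, with an adjusted p of 0.025, but with arrays centred on their median the difference was -0.23 ± 0.09 with an adjusted p of 0.0954. Without control replicate 1 or 2 or dehydrated replicate 4 or 5 its adjusted p was 0.0504 to 0.0653. In females it was -0.22 ± 0.13 (adjusted p = 0.395).

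The chaperones that did not pass in either set included abundant ones. Hsp90b1, the Hsp90 of the ER (1388331_at), read 966.0, 1098, 1095 and 1001 in control females and 916.7, 990.3, 1034 and 933.1 in dehydrated females. In males it read 945.6, 903.0, 927.1, 831.6 and 1025 in controls and 1025, 956.8, 1004, 947.4 and 968.4 after dehydration. The groups overlapped in both sets, with differences of -0.10 ± 0.10 and 0.08 ± 0.06. Hyou1, a large Hsp70 relative that exchanges nucleotide on BiP, had -0.23 ± 0.21 in females and -0.15 ± 0.08 in males. Sil1, the other exchange factor of BiP, had 0.36 ± 0.17 and 0.25 ± 0.16. Dnajb9, a J-domain protein that acts on the sensor Ire1, came close in males: controls read 408.0, 486.0, 596.8, 669.5 and 805.4 and dehydrated pools 705.8, 775.3, 882.3, 748.4 and 717.8. The spread of the control pools was wide, and its difference of 0.40 ± 0.14 had an adjusted p of 0.0581. Dnajb11, Ppib and Hspa13 had male differences of 0.16 ± 0.07, 0.12 ± 0.07 and 0.04 ± 0.07.

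**Figure D2:**
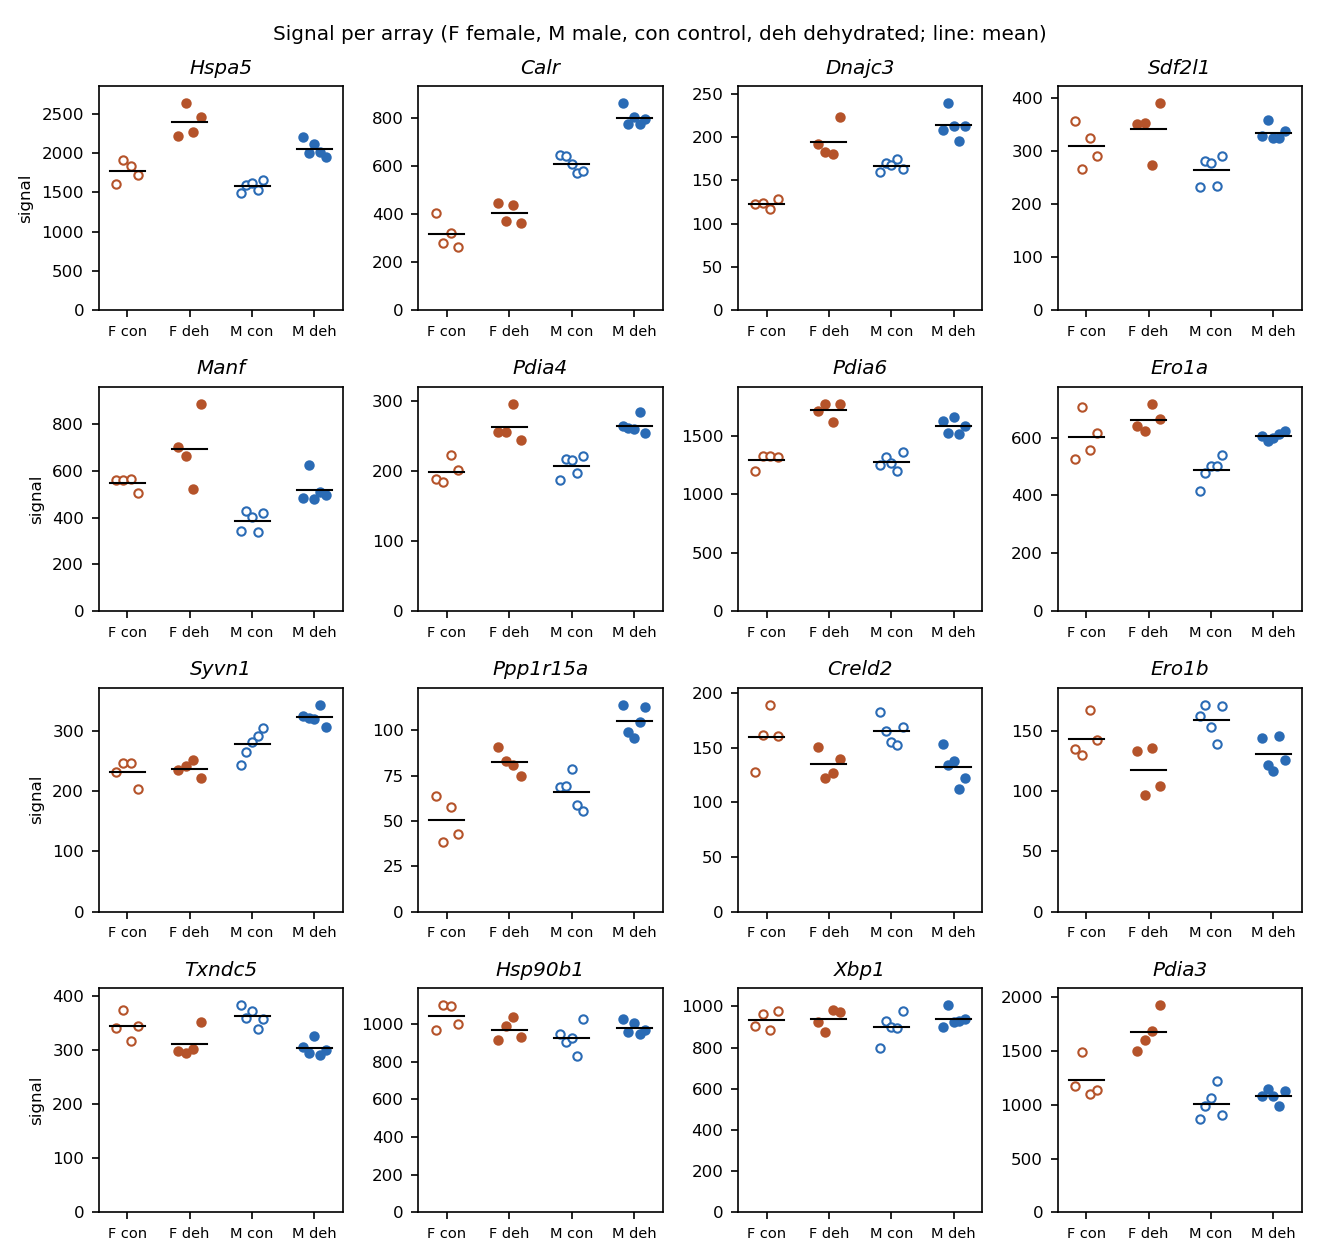
Deposited signal on each array for 16 of the genes, with open points for control and filled points for dehydrated pools and a line at each group mean. Hspa5, Dnajc3, Pdia4, Pdia6 and Ppp1r15a separate in both sets, Creld2, Ero1b and Txndc5 are lower after dehydration in males, and Hsp90b1 and Xbp1 overlap throughout. How many of all probe sets separate in this way was not counted.

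Many ER chaperone promoters carry the ER stress response element (ERSE), which was searched for as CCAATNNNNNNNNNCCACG on both strands. Promoters came from RefSeq (GRCr8), with 250 bases before and 50 after the annotated start. Of the 33 genes, 27 had an entry; Atf6, Derl1, Ero1a, Manf, Pdia3 and Pdia6 had none. An exact match stood before 9 members and in 0.0657% of the 33469 windows. The same ends stand before genes called higher, lower and neither in the main male fit. The 10 matches, 2 of them before Hsp90b1, are therefore shown with the conserved ends in capitals.
Hspa5: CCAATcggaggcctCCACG
Hsp90b1: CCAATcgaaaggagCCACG
Hsp90b1: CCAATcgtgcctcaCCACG
Creld2: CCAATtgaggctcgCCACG
Canx: CCAATcatcacgctCCACG
Xbp1: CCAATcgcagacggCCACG
Dnajc3: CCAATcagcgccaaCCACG
Ero1b: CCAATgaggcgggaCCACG
Calr: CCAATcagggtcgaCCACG
Derl3: CCAATaaggaagtcCCACG

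Their places, in the same order, were chr3:38452973-38452991 on the plus strand, chr7:23012451-23012469 on the minus strand and chr7:23012347-23012365 on the plus strand, chr7:121789239-121789257 (minus), chr10:35158069-35158087 (minus), chr14:84604558-84604576 (plus), chr15:102432534-102432552 (plus), chr17:92941458-92941476 (minus), chr19:40213135-40213153 (minus) and chr20:12766601-12766619 (plus). The first base of the match lay 43 bases before the start in Hspa5, 65 in Xbp1 and 133 in Dnajc3.

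Of the 8 measured genes with an exact ERSE, 3 were higher in males (Hspa5, Calr and Dnajc3) and 2 lower (Creld2 and Ero1b), with a median of 0.08 and a range from -0.31 to 0.40. Of the 18 with an entry but no exact match, 4 were higher and 1 lower, with a median of 0.13. These 18 include Dnajb11, Herpud1 and Hyou1, which have the related element described below. With arrays centred on their median, 0 members were lower in males, so the lower calls in both groups depend on the scaling. Whether the element goes with the direction of change was not tested. The 6 genes without an entry had 3 higher. The bases before the start are shown on the plus strand of GRCr8 for 2 genes that rose, Hspa5 (chr3:38452766-38453015) and Dnajc3 (chr15:102432417-102432666), and for Creld2 (chr7:121789134-121789383), which fell in males. Capitals mark the ends of the ERSE, which reads in the opposite direction in Creld2.
Hspa5: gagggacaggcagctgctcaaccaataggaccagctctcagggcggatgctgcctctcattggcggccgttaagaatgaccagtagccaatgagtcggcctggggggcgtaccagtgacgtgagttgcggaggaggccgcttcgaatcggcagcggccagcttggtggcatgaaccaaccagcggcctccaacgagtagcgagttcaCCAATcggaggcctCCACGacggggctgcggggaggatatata
Dnajc3: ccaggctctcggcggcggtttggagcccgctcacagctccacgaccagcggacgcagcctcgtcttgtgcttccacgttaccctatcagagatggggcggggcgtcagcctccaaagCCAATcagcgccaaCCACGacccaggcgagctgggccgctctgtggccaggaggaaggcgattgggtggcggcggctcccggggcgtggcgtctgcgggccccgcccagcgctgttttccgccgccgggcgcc
Creld2: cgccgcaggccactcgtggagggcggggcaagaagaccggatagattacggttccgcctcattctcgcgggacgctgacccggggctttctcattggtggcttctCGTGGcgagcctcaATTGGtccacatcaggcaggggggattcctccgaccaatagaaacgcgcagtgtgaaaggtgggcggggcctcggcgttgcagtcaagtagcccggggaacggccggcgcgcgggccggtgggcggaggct

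A related element, ERSE-II (ATTGGNCCACG, both strands), matched in 0.0508% of all windows and before 3 members: Dnajb11, Herpud1 and Hyou1. The short element TGACGTGG or TGACGTGA, known as the UPRE, matched in 0.995% of windows and before Dnajc10, Hspa5 and Hyou1, where it shared bases with 1 of the gene's 2 ERSE-II matches. Of these genes, Hspa5 alone passed the test in males. A match is a description of letters and not a shown binding site.

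**Figure D3:**
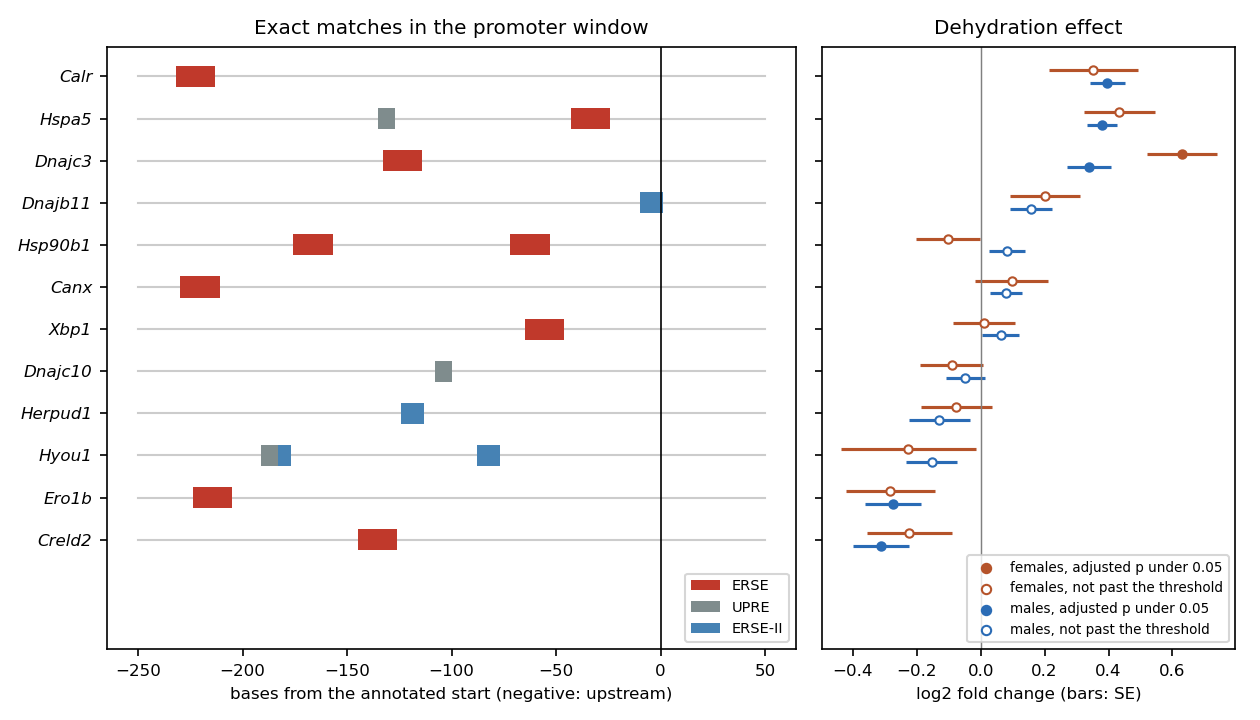
Left, positions of exact ERSE, ERSE-II and UPRE matches in the promoter windows of 12 measured genes, in bases from the annotated start. Right, the log2 fold change of the same genes with bars of 1 standard error, filled where the adjusted p was under 0.05. ERSE matches stand beside male differences from -0.31 in Creld2 to 0.40 in Calr.

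Of the 9 disulfide enzymes, 3 were higher and 2 lower in males and 1 was higher in females. The shares over all genes were 11.1% higher and 9.98% lower in males and 2.27% higher in females. The median difference was 0.11 in males and 0.03 in females. Pdia6, Pdia4 and Ero1a rose in males, and Txndc5 and Ero1b fell.

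Pdia6, an abundant protein disulfide isomerase (1370859_at), passed in both sets. Control females read 1194, 1323, 1327 and 1318 and dehydrated females 1711, 1771, 1619 and 1770. Control males read 1246, 1315, 1266, 1194 and 1356 and dehydrated males 1622, 1520, 1658, 1519 and 1581. No pool of one group lay within the other in either set. The difference was 0.41 ± 0.10 in females, just past the threshold with an adjusted p of 0.0482, and 0.31 ± 0.05 in males with an adjusted p of 0.000603. With the additional dehydrated array, at 1275, the female difference was 0.33 ± 0.18 with an adjusted p of 0.673, and quantile normalization gave 0.27 ± 0.10 with an adjusted p of 0.18. Leaving out any 1 of 7 arrays (each control, or dehydrated replicate 1, 2 or 4) also ended the female call, with adjusted p-values of 0.0508 to 0.136.

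Pdia4, another isomerase of the family (1370007_at), read 187.2, 216.3, 215.1, 197.3 and 221.2 in control males and 264.0, 260.8, 259.2, 284.1 and 253.8 in dehydrated males. In females it read 188.6, 184.1, 222.6 and 201.0 in controls and 255.3, 255.6, 295.5 and 244.8 after dehydration. Groups were apart in both sets. The differences were close, 0.34 ± 0.07 in males with an adjusted p of 0.00306 and 0.39 ± 0.11 in females with an adjusted p of 0.0761. With the additional array the female difference was 0.36 ± 0.13 (adjusted p = 0.499). Pdia3, the isomerase that partners calreticulin and calnexin (1398788_at), read 1178, 1486, 1101 and 1140 in control females and 1503, 1597, 1681 and 1921 in dehydrated females. Those groups did not overlap, but the difference of 0.45 ± 0.13 had an adjusted p of 0.0788, and with the additional array it was 0.40 ± 0.18 (adjusted p = 0.608). In males the groups overlapped, at 870.8 to 1216 against 984.3 to 1148, with a difference of 0.12 ± 0.08. The male effect minus the female effect was -0.34 ± 0.15, with an adjusted p of 0.441. A second Pdia3 probe set gave 0.25 ± 0.12 in females and 0.22 ± 0.09 in males.

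Ero1a and Ero1b are the 2 oxidases that recharge the isomerases, and they lay on opposite sides in males. Ero1a (1389297_at) read 416.0, 477.7, 503.2, 502.6 and 539.1 in control males and 605.7, 589.3, 597.0, 610.5 and 622.1 in dehydrated males. Ero1b (1382944_at) read 161.7, 171.4, 152.7, 138.9 and 170.3 in controls and 143.7, 121.4, 116.5, 145.3 and 125.8 after dehydration. The Ero1a groups were apart, while 2 dehydrated Ero1b pools read above the lowest control. Ero1a rose by 0.31 ± 0.06 with an adjusted p of 0.00439, and a second, dimmer Ero1a probe set had 0.24 ± 0.13 without passing. Ero1b fell by 0.27 ± 0.09 with an adjusted p of 0.0412, which became 0.145 with arrays centred on their median and 0.0884 after quantile normalization. Leaving out any 1 of 7 arrays (control replicate 1, 2, 3 or 5, or dehydrated replicate 2, 3 or 5) gave it adjusted p-values of 0.0617 to 0.0972. In females Ero1a had 0.14 ± 0.11 and Ero1b -0.28 ± 0.14, neither past the test.

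Txndc5, an isomerase with several thioredoxin domains (1371391_at), read 382.0, 359.2, 372.6, 338.8 and 357.3 in control males and 305.5, 293.5, 325.6, 290.3 and 299.9 in dehydrated males. All dehydrated pools lay below all controls. It fell by 0.25 ± 0.06 with an adjusted p of 0.00869, which became 0.0613 with arrays centred on their median. The female difference was -0.14 ± 0.10 (adjusted p = 0.485). P4hb, the founding member of the isomerase family, had 0.03 ± 0.16 in females and 0.11 ± 0.06 in males, and Pdia5 and Dnajc10 were between -0.09 and -0.03 in both sets without passing.

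Of the 6 measured ERAD genes, 1 was higher in males and 0 were lower, where 11.1% and 9.98% of all genes were. At an unadjusted p under 0.05 there was 1 in each direction by limma, where 1930 of 11526 genes were higher and 2108 lower. Counts this small say little about the branch. In females 0 passed in either direction (0 also unadjusted), where 2.27% of all genes were higher and 1.56% lower. The median was 0.05 in males and -0.02 in females. Syvn1, the ubiquitin ligase at the centre of ERAD (1371827_at), read 243.2, 265.1, 280.6, 292.0 and 305.0 in control males and 323.7, 320.6, 319.1, 343.1 and 306.9 after dehydration. The groups were apart by a narrow margin. Syvn1 rose by 0.22 ± 0.07, with an adjusted p of 0.0392, and leaving out any 1 of 8 arrays (control replicate 1, 2 or 3, or any dehydrated pool) ended the call, with adjusted p-values of 0.0512 to 0.0935.

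Derl1, a membrane channel component of ERAD (1374581_at), read 329.1, 330.9, 352.0, 336.4 and 370.1 in control males and 297.1, 305.3, 318.9, 309.5 and 289.8 in dehydrated males. The groups did not overlap, but the difference of -0.17 ± 0.06 had an adjusted p of 0.0533, and 2 further Derl1 probe sets had male differences of -0.05 ± 0.08 and 0.07 ± 0.13. Its relative Derl2 had 0.09 ± 0.13 in females and -0.05 ± 0.08 in males. Edem1, which hands misfolded glycoproteins to degradation, had 0.19 ± 0.12 and 0.21 ± 0.10. Sel1l, the partner of Syvn1, had -0.23 ± 0.21 and 0.14 ± 0.18, and Herpud1, which organises the ligase complex, had -0.08 ± 0.11 and -0.13 ± 0.10. None of these 5 genes passed in either set.

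Among the 3 regulators, Ppp1r15a differed from the transcription factors Xbp1 and Atf6. Ppp1r15a brings a phosphatase to eIF2 and so ends the block on protein synthesis (1370174_at). Control females read 63.6, 38.3, 57.7 and 42.7 and dehydrated females 90.7, 83.0, 80.9 and 74.7. Control males read 68.6, 69.2, 78.6, 59.0 and 55.5 and dehydrated males 114.1, 99.3, 95.6, 104.5 and 112.7. All dehydrated pools lay above all controls in both sets. The difference was 0.63 ± 0.10 in males, a fold of 1.54 with an adjusted p of 0.00079, and 0.66 ± 0.17 in females with an adjusted p of 0.0552. With the additional array the female difference was 0.62 ± 0.18 (adjusted p = 0.366). Because an offset was added before logs were taken, these values understate the change of a dim gene.

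Xbp1 (1371249_at) read 904.0, 963.8, 885.7 and 974.9 in control females and 922.8, 875.4, 983.3 and 972.7 in dehydrated females. In males it read 797.0, 929.4, 899.0, 896.3 and 978.7 in controls and 901.2, 1004, 922.6, 930.1 and 937.3 after dehydration. The groups overlapped in both sets, with differences of 0.01 ± 0.10 and 0.06 ± 0.06. A single signal per gene does not separate the spliced from the unspliced Xbp1 transcript. Atf6 had -0.05 ± 0.15 in females and 0.12 ± 0.09 in males, neither past the test.

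The 2 array sets shared no control arrays. Of the 32 genes, 27 had the same sign in both (84.4%), against 71.2% of 11142 genes tested in both sets. Across the 32 genes the female and male differences had a Pearson r of 0.82 and a Spearman rho of 0.80, and over the 11142 genes the r was 0.637. Genes are not independent replicates, so these values describe the arrays. In the direct test of male against female effects, 0 of the 32 genes passed, where 0.0322% of probe sets did. At an unadjusted p under 0.05, Dnajc3 and Pdia3 were the 2 members that differed, against 10.0% of all probe sets. The median standard error of that difference over all probe sets was 0.21.

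**Figure D4:**
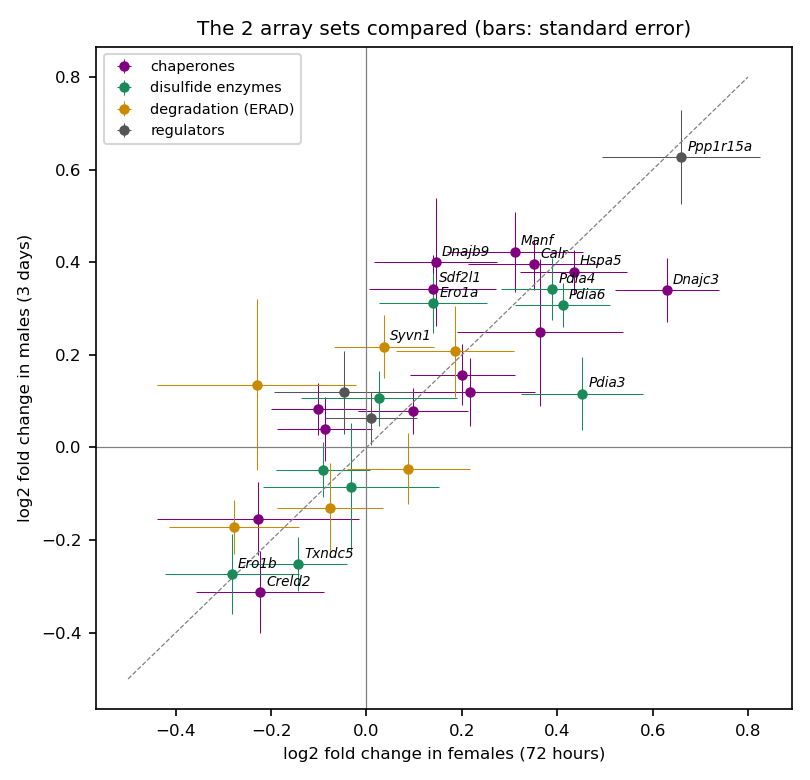
Log2 fold change in males (vertical) against females (horizontal) for the 32 genes, coloured by branch, with bars of 1 standard error and a dashed line of equality. Most genes lie in the upper right or lower left part of the plot. Dnajc3 and Pdia3 lie below the line, with female values of 0.63 and 0.45 and male values of 0.34 and 0.12.

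The log2 ratio of 2 deposited signals on the same array does not depend on a factor that scales the array, and 3 pairs, picked after their values were seen, are given with no test. Each value sets 1 probe set against another, so that only its change between groups can be read. Hspa5 minus Hsp90b1 was 0.73 to 0.80 on control and 1.13 to 1.41 on dehydrated female arrays. In males it was 0.65 to 0.88 on control and 1.01 to 1.10 on dehydrated arrays. The control and dehydrated ranges of this pair did not overlap in either set. Ero1a minus Ero1b was 1.36 to 1.85 on control and 2.07 to 2.36 on dehydrated male arrays, also apart, while in females 1.74 to 2.44 and 2.27 to 2.69 overlapped. Hspa5 minus Creld2, both with an ERSE, was 3.28 to 3.66 on control and 3.88 to 4.43 on dehydrated female arrays. In males it was 3.03 to 3.38 and 3.84 to 4.17, without overlap in either set.

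Other genes of the pathway came from lists of sensors and factors, chaperones, disulfide enzymes and ERAD components. Their counts stand beside the shares over all genes with 1 probe set each. These were 11.1% higher and 9.98% lower in males, and 2.27% and 1.56% in females. The first list held 17 further sensors, transcription factors and linked genes such as Chac1, and 15 were tested. Of these, 5 rose, Chac1 among them, and 0 fell in each set (unadjusted by limma, 0 lower in males and 1, Mbtps1, in females). Atf4, the factor made when eIF2 is phosphorylated, rose by 1.09 ± 0.18 in females with an adjusted p of 0.00863. In males it rose by 1.09 ± 0.05 with an adjusted p of 1.8e-08, and its signal was 675.5 to 797.3 in controls and 1464 to 1654 after dehydration. Creb3l1, an ER-membrane-bound factor of the same class as Atf6, rose by 1.31 ± 0.14 and 1.86 ± 0.10. Chac1, a glutathione-degrading target of Atf4, rose by 0.72 ± 0.10 and 1.26 ± 0.08, and the difference between the sets had an adjusted p of 0.0929. The remaining genes were Ddit3, with 0.70 ± 0.16 and 0.64 ± 0.07, and Creb3, with 0.64 ± 0.12 and 0.62 ± 0.08, named after their values were seen. The sensor kinase gene Eif2ak3 had -0.13 ± 0.14 and 0.03 ± 0.12. Of the protease genes whose products cut Atf6, Mbtps1 had -0.52 ± 0.13 in females, with an adjusted p of 0.0521 and all dehydrated arrays below all controls, and -0.19 ± 0.09 in males, and Mbtps2 had 0.06 ± 0.16 and -0.03 ± 0.09. With the additional dehydrated array, 0 of the 15 passed in females (3 higher at an unadjusted p under 0.05 by limma). In that fit Atf4 had 0.69 ± 0.41 (adjusted p = 0.704), Creb3l1 1.12 ± 0.23 (0.209) and Chac1 0.46 ± 0.26 (0.694). Ddit3 had 0.36 ± 0.35 (0.845) and Creb3 0.41 ± 0.25 (0.713). The list's median was 0.27 in females and 0.10 in males.

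**Figure D5:**
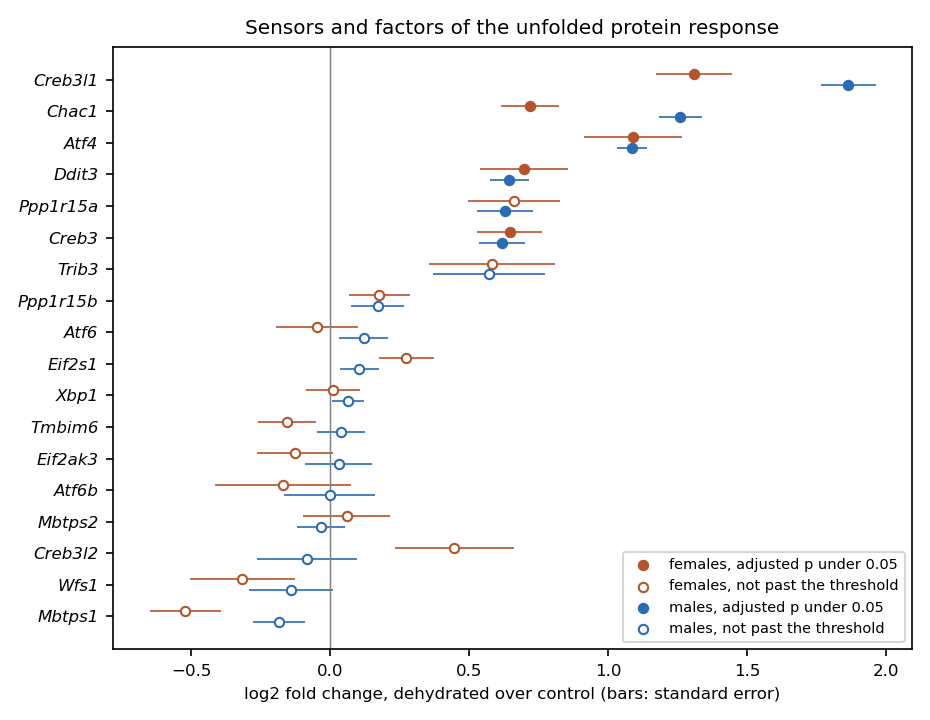
Log2 fold change of dehydrated over control arrays for sensors, factors and linked genes of the unfolded protein response. The 3 regulators among the members are included, and bars show 1 standard error. Points are filled where the adjusted p was under 0.05. Creb3l1, Chac1, Atf4, Ddit3 and Creb3 are filled in both sets, Ppp1r15a is filled in males, and Xbp1 and Atf6 lie near 0.

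In the list of further chaperones and glycan-trimming proteins 15 genes were tested, and 3 rose and 4 fell in males. The list also held genes of other roles, such as Mcfd2 and Serp1. Prkcsh, a subunit of the glucosidase that trims new glycoproteins, rose by 0.37 ± 0.05 with an adjusted p of 0.000258, Mcfd2 by 0.29 ± 0.07 and Sdf2, the paralogue of Sdf2l1, by 0.18 ± 0.06. The prolyl isomerase genes Ppic, Fkbp9 and Fkbp10 fell by 1.30 ± 0.21, 0.75 ± 0.18 and 0.33 ± 0.10, and Serp1, a small membrane protein of the translocon, by 0.16 ± 0.05 with an adjusted p of 0.0489. In females 0 of the 15 passed in either direction (unadjusted, 3 higher and 2 lower by limma). The summed meningeal and fibroblast signal fell beside these genes, as given above, and its part was not tested. The list of further disulfide enzymes, which also held the prolyl hydroxylase subunits P4ha1 and P4ha2, had 13 tested genes. Of these, 4 rose and 0 fell in males (unadjusted by limma, 1 lower, P4ha1). Tmx1, a membrane-bound thioredoxin-like protein, rose by 0.51 ± 0.05 with an adjusted p of 9.11e-06, Tmx4 by 0.23 ± 0.05, Erp29 by 0.35 ± 0.09 and Vkorc1l1 by 0.51 ± 0.13. Tmx1 also rose in females, by 0.47 ± 0.10 with an adjusted p of 0.0355, which became 0.19 ± 0.30 and 0.911 with the additional array.

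Of 19 further ERAD genes, 4 rose and 1 fell in males and 1 rose in females. Over all genes 11.1% rose and 9.98% fell in males, and 2.27% rose in females. Ube2j1, the ubiquitin-conjugating enzyme of the ER membrane, rose by 0.99 ± 0.22 in females and by 0.46 ± 0.10 in males, with adjusted p-values of 0.0343 and 0.00687. With the additional array the female difference was 0.80 ± 0.28 (adjusted p = 0.475). Its signal was low, between 22.0 and 50.4 in control females and between 62.3 and 83.8 after dehydration. Nploc4 and Vcp, partners that pull proteins out of the membrane, rose in males by 0.30 ± 0.07 and 0.21 ± 0.06, and Faf2, which recruits Vcp, by 0.27 ± 0.08. Erlin2, a membrane scaffold of ERAD, fell in males by 0.30 ± 0.06 with an adjusted p of 0.00517.

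Among the 32 genes, 10 had 13 further probe sets in all. Of these 13, 10 were tested in females and 9 in males, and 0 passed in either set, also where the gene's main probe set did, as for Ero1a. Some had the opposite sign to the main probe set. In females these were of Hyou1 (0.16 ± 0.24), Dnajc10 (0.15 ± 0.12) and Derl2 (-0.07 ± 0.15). In males they were of Canx (-0.07 ± 0.06) and Derl1 (0.07 ± 0.13). The 45 probe sets share targets within a gene and were not counted as separate members.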

How the data were processed

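The members and all gene lists were chosen with earlier results of these data known. The values are single-colour Affymetrix signal intensities deposited by the authors, from GCOS 1.2 for males and MAS5 for females, per the submitters' processing notes; the background correction behind them is not given in the sources used here. RNA was prepared with QIAzol, RNeasy columns and Ambion amplification in males and with Trizol in females, per the labels. Arrays have no read depth, so their number limits the precision.

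Signals are printed as deposited. Whether groups overlapped was read for the reported genes only and not counted over all probe sets, so separation is a description. For the tests, each array was rescaled to a mean of 500 with 2% trimmed at each end, 32 was added and log2 taken, so fold changes are on the log2(signal + 32) scale. After removal of 57 control probe sets, those above the 30th percentile of mean log2 signal were tested, 21729 in each fit. Dehydrated was compared with control within each set with limma 3.58.1 (lmFit and eBayes with a trend, in R 4.3.3), with Benjamini-Hochberg adjustment over all probe sets and a threshold of 0.05. Another fit over 4 groups tested the difference between the effects. The fit was tested on simulated data with planted changes larger than those of the members, so that test does not cover changes of their size. Gene names came from the platform annotation and were updated to RefSeq symbols where the Entrez gene number matched. All 32 measured members were reported; of other lists, up to 3 rising and 3 falling genes with the smallest male adjusted p were named, and in counts of up to 5 also the rest, chosen after their values were seen. Figures were drawn with matplotlib 3.10.9. Alternatives were quantile normalization, median centring, offsets of 1 and 100, no filter or the 50th percentile, the mean of a gene's probe sets, 1 fit over 4 groups, the additional female array and leaving out each array.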

Additional observations from a re-analysis of the deposited data

Results flagged for a closer look

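Of 52 sets of arrays screened (13 genes in 4 groups), 4 had an array set apart from the rest of its group by Dixon's criterion, where chance gives about 1 in 20. Manf read 624.0 on dehydrated male replicate 2, against 478.9 to 510.6 on the other 4, and 507.0 on control female replicate 4, where the nearest control read 560.6. Pdia6 read 1194 on control female replicate 1, with the nearest control at 1318. Txndc5 read 350.7 on dehydrated female replicate 4, with the nearest at 301.1.

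On the additional dehydrated female array, which the comparisons leave out and on which Avp and Oxt were near background, Dnajc3 read 128.8, against a highest control female value of 128.2 and a lowest value of 180.6 on the other dehydrated female arrays.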

How the results depend on the processing

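No paired analysis was possible because the labels give the groups compared no replicate numbers in common; the numbers of the control females come from their titles, the others follow accession order, and nothing pairs them. The number of members higher in females, 2, became 1 without a filter, 4 with the filter at the 50th percentile, 0 with the additional dehydrated array and 7 in 1 fit over 4 groups, while the count over all probe sets went from 384 to 327, 407, 1 and 1106, and the members' count ran from 0 to 3 when each array was left out; it was 0 without control female replicate 3 and 1 without control replicate 1 or 4 or dehydrated replicate 1, 2 or 4. The number lower in males, 3, became 0 with arrays centred on their median and 1 in the fit over 4 groups, where all probe sets lower went from 2038 to 1091 and 1159, and the members' count ran from 1 to 3 when each array was left out, with 1 without dehydrated replicate 5 or control replicate 1 or 2. The number higher in males stayed between 9 and 12. No named value changed direction past the threshold. In males Hspa5, Calr, Dnajc3, Sdf2l1, Manf, Pdia4, Pdia6, Ero1a and Ppp1r15a passed under all 18 alternatives, Txndc5 under 17, Creld2 under 12, Syvn1 under 9 and Ero1b under 7. In females Dnajc3 passed under 15 of 17 and Pdia6 under 6, while Ppp1r15a passed under 5 and Hspa5 under 4. The cause of these changes was not tested. With 4 or 5 pools per group, differences near the standard error could not be resolved.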

Other observations

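Mzb1, an ER protein best known as a BiP-associated cochaperone of plasma and B cells, was outside the members and was picked after its values were seen. Its signal was 24.9 to 35.2 in control and 56.4 to 88.5 in dehydrated females, and 20.2 to 36.4 in control and 51.0 to 77.8 in dehydrated males, without overlap in either set. The differences were 1.13 ± 0.17 in females and 1.21 ± 0.15 in males, with limma adjusted p-values of 0.00701 and 8.16e-05. With the additional array the female difference was 1.08 ± 0.19 (adjusted p = 0.152). Of the 4 plasma and B cell markers tested, Mzb1 was the 1 that passed in either set. The summed signal of the 6 on the array was 124.4 to 159.2 in control and 150.8 to 229.4 in dehydrated females, and 56.2 to 122.9 in control and 118.9 to 157.7 in dehydrated males. This sum includes Mzb1 itself, so it is no separate view of the other markers. The 2 of the 6 that were not tested were below the filter. The part of such cells was not tested.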
